A study of Mus musculus with 6 samples.

Results

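The genes of the mouse mitochondrial genome were followed in skin of db/db mice, which lack a working leptin receptor and become obese and diabetic. The members are all rows of the count table whose symbol starts with mt-, which gave 37 of 48377 listed genes: 13 proteins, 2 ribosomal RNAs and 22 transfer RNAs. Poly(A) RNA was sequenced from 3 libraries after 16 days of vemurafenib, labelled at 1 uM, an inhibitor of the BRAF kinase, and from 3 libraries after 16 days of vehicle, which the sample titles name DMSO. Every library came from skin of the db/db model, and the labels give neither age nor sex. They do not say that each library is its own animal, so the replicate error used in the tests may be partly or wholly technical. The deposited totals were 78434, 20796 and 38293 counts in vemurafenib 1, 2 and 3, and 22985, 14189 and 48798 counts in vehicle 1, 2 and 3. Of the 37 members, 23 had at least 1 count in any library, 14 had none, and 7 were counted deeply enough for the test, all of them proteins. All 10 keratinocyte markers and all 8 dermal fibroblast markers checked for the skin label had counts, as did 16695 of the 48377 listed genes. The skeletal muscle, adipocyte and immune marker lists, given below, each had members at 0.

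The mitochondrial genome is a small circle that codes proteins of the respiratory chain together with the ribosomal and transfer RNAs needed to translate them inside the organelle. Both strands are transcribed as long precursors that start in the control region, and excision of the transfer RNAs frees most of the messenger and ribosomal RNAs between them. The precursor copied from the heavy strand carries nearly all genes, which the annotation places on the plus strand of the reference, whereas the precursor copied from the light strand carries the NADH dehydrogenase subunit gene mt-Nd6 and a minority of the transfer RNAs, which are annotated on the minus strand. In the annotation used here 28 members lie on the plus strand and 9 on the minus strand, and those 9 are mt-Nd6 and 8 transfer RNAs. The genes have no introns and abut or overlap, and stretches of the mitochondrial genome have been copied into nuclear chromosomes.

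The sequences that bear on the counts are the ends where the 2 strands meet and the stretches repeated in nuclear DNA. The genes mt-Nd5 (chrM:11742-13565, plus strand, mm10) and mt-Nd6 (chrM:13552-14070, minus strand) face each other and share 14 base pairs, chrM:13552-13565. The last 80 bases of each gene are given 5′ to 3′ on its own strand from the GENCODE M21 transcripts, with the shared bases in capitals, which are reverse complements of each other.
mt-Nd5: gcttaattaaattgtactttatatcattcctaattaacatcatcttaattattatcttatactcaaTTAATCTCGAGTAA
mt-Nd6: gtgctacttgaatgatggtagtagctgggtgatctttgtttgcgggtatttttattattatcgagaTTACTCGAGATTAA
Of 9 overlaps between members, this was the largest between opposite strands, and the others ranged from 1 base to the 43 bases shared by mt-Atp8 and mt-Atp6 on the same strand.

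Nuclear copies were found among annotated transcripts off the mitochondrial genome: 15 pseudogene features matched 11 members over at least 200 bases at 90% identity or more. Of these, 7 lie side by side on the minus strand of chromosome 1 (chr1:24611535-24616197) and match mt-Co1 in part, mt-Co2, mt-Atp6, mt-Co3, mt-Nd3, mt-Nd4l and mt-Nd4 in part, at 99.71% identity or more. The first 100 bases of mt-Co2 (chrM:7013-7112) and of its copy Gm28661 (chr1:24615466-24615565, minus strand) are shown as the case with no difference, so no base is in capitals.
mt-Co2: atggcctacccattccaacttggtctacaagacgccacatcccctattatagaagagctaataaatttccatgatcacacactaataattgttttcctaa
Gm28661: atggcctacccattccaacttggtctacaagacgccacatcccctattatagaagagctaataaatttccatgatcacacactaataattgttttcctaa
A stretch of mt-Cytb (chrM:14245-14344) beside its copy Gm11410 (chr4:80004089-80004188, plus strand) is shown for contrast, with the 7 differing bases in capitals.
mt-Cytb: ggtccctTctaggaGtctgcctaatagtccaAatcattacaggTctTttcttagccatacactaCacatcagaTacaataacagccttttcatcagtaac
Gm11410: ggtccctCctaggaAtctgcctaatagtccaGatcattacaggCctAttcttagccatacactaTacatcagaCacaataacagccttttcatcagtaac
In mt-Nd4 (chrM:10167-11544) the annotated copy on chromosome 1, Gm28439, matches the first 876 bases without a difference and ends there. Whether the likeness goes on past the annotated feature was not searched. The bases on either side of that end (chrM:10983-11102) are shown with those beyond the annotated copy in capitals.
mt-Nd4: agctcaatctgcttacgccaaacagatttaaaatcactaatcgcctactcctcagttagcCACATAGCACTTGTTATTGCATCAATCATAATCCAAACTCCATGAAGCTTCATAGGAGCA

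The counts fell very unevenly over the genome. The 37 members held 3261 counts in the 6 libraries, 1.46% of all counts. The gene mt-Nd5, a core subunit of complex I (NADH dehydrogenase, the entry point of electrons into the chain), held 1754 of them at 962 counts per kb of gene. Its neighbour on the other strand, mt-Nd6, held 368 counts at 709 per kb, and the next protein gene, mt-Cytb (chrM:14145-15288), the cytochrome b of complex III, held 228 at 199 per kb. The stretch from mt-Nd5 to mt-Cytb (chrM:11742-15288) thus held 2357 counts, or 72.3% of the mitochondrial total. Elsewhere mt-Nd4 had 232 counts per kb, mt-Nd1 (chrM:2751-3707) 145, mt-Nd2 (chrM:3914-4951) 108 and mt-Co1 (chrM:5328-6872) 106, all with 112 counts or more. The ribosomal RNAs mt-Rnr1 (chrM:70-1024) and mt-Rnr2 (chrM:1094-2675) had 33.5 and 29.1 counts per kb.

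Low densities stood beside high sequence sharing. In mt-Co2, mt-Atp6, mt-Co3, mt-Nd3 and mt-Nd4l, between 98.0% and 100% of all 50-base words of the gene also occur in an annotated nuclear feature, and their densities were 13.2, 27.9, 26.8, 34.5 and 37.04 counts per kb. In mt-Nd1, mt-Nd6 and mt-Cytb no 50-base word does, and in mt-Nd5 7.61% do. The genes mt-Co1 and mt-Nd4 lie between, with 51.1% and 62.2% of words shared. Per 1000 words found nowhere else among the annotated transcripts, mt-Nd4 had 637 counts, mt-Co1 224 and mt-Nd5 1070. This scaling breaks down for the 5 most shared genes: mt-Co2 had 9 counts and no such word, and mt-Atp6, mt-Co3, mt-Nd3 and mt-Nd4l had 11 to 21 counts with 1 to 6 such words. Where in or beside these genes the counted reads lay was not examined. The relation had exceptions: mt-Rnr1, with no shared word, and mt-Rnr2, with 1.04%, had densities in the range of the shared genes. The gene mt-Atp8 (chrM:7766-7969), between mt-Co2 and mt-Atp6, had 1 count and no shared word in annotated features. On chromosome 1 the copy of mt-Atp6 ends at 24614651 and that of mt-Co2 starts at 24614885. Sequence between annotated features was not searched, so the sharing of mt-Atp8 is not known. The treatment of reads that align to several places is not given in the sources used here, and its part in these densities was not tested. The copies themselves were nearly empty: the 15 features held 22 counts in all, 8 of them had none, and Gm28438, the copy of mt-Nd3, had the most with 9.

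**Figure D1:**
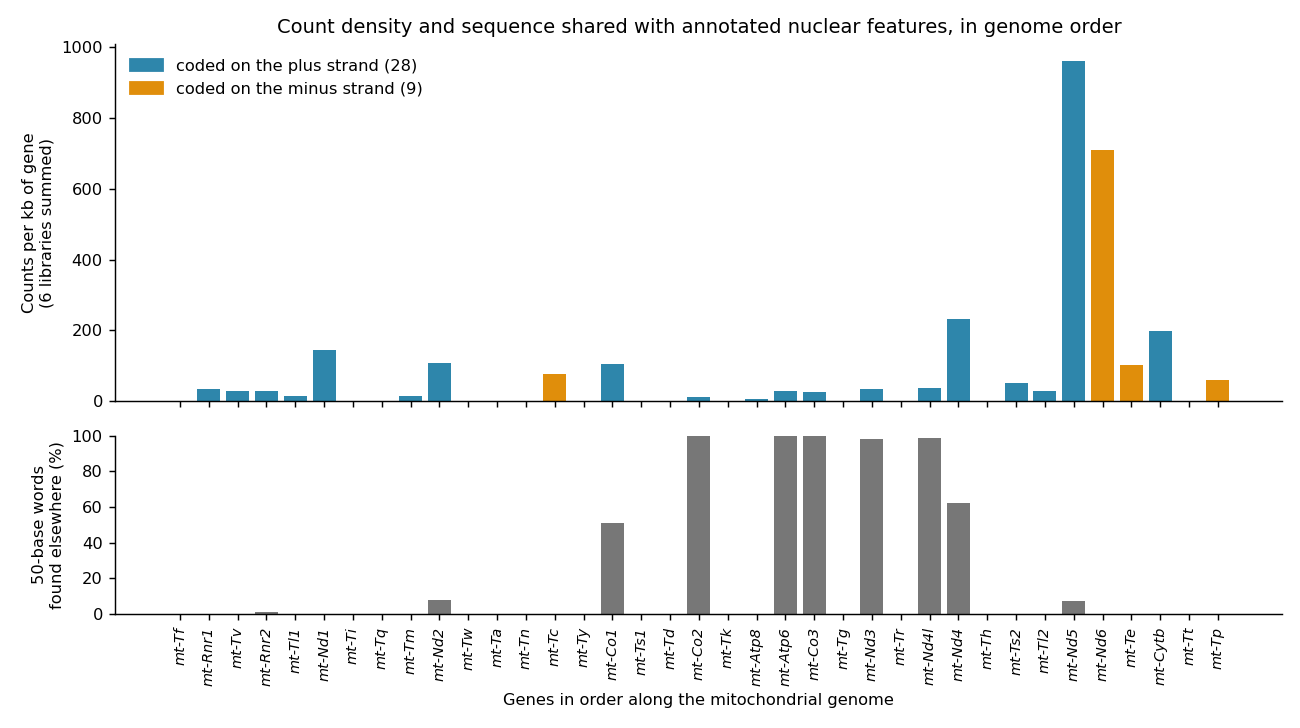
Counts per kb of gene summed over the 6 libraries (upper bars) and the percentage of 50-base words that also occur in annotated nuclear features (lower bars), for the 37 genes in their order along the mitochondrial genome; blue genes are coded on the plus and orange genes on the minus strand. The peak at mt-Nd5 (962) and mt-Nd6 (709) contrasts with mt-Co2, mt-Atp6, mt-Co3, mt-Nd3 and mt-Nd4l, which lie at 37.04 or below and share 98.0% or more of their words.

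By strand, the 28 plus-strand genes held 2877 counts (200 per kb) and the 9 minus-strand genes 384 counts (360 per kb). Nearly all minus-strand counts were under mt-Nd6. The strand that a read counted under a name came from cannot be read from these tables, because the libraries were stranded and the strand setting of the counting is not given. In the nuclear pairs looked up beside them, the name with more counts was on the plus strand in some and on the minus strand in others. Mterf4 and Fastk on the minus strand had 83 and 103 counts, and Sned1 and Slc4a2 opposite them had 29 and 47. Xist on the minus strand of the X chromosome had 35 counts and Tsix opposite it 704, Malat1 had 612 counts and Gm37376 opposite it 1548, and the housekeeping genes Gapdh, Actb and Eef1a1 had 6, 47 and 15. The collagen gene Col1a1 was among the well counted genes under its own name, with 2950 counts, but no gene opposite it was looked up. Counts under mt-Nd5 and mt-Nd6 are therefore given by gene name and not as RNA of a known strand.

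By complex, the 7 subunits of complex I held 2716 counts, or 83.3% of the mitochondrial counts. Of these, 1754 were under mt-Nd5, and complex I without mt-Nd5 held 962 (29.5%) at 212 counts per kb. The only member of complex III, mt-Cytb, held 228 (6.99%). The 3 subunits of complex IV, cytochrome c oxidase, which passes electrons to oxygen, held 194 (5.95%), of which 164 were under mt-Co1. The 2 subunits of complex V, the ATP synthase, held 20 (0.61%). The ribosomal RNAs held 78 (2.39%) and the transfer RNAs 25 (0.77%).

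The make-up of the mitochondrial counts was compared library by library. The share of mt-Nd5 was 49.0%, 58.0% and 56.2% of mitochondrial counts in vemurafenib 1, 2 and 3, and 53.6%, 65.4% and 55.4% in vehicle 1, 2 and 3. These shares overlapped between the groups, and the 95% exact binomial interval was widest in vehicle 2 (56.7% to 73.4%), which had only 133 mitochondrial counts. The minus-strand genes took 13.5%, 10.9% and 6.86% in vemurafenib 1, 2 and 3, and 14.4%, 8.27% and 13.5% in vehicle 1, 2 and 3. The means were 10.4% ± 3.34 with vemurafenib and 12.1% ± 3.31 with vehicle (SD, n = 3 each), a difference of -1.64 percentage points that was 0.13 without vemurafenib 3 and -3.53 without vehicle 2. Vemurafenib 3, at 6.86% (5.03% to 9.11%), lay below the intervals of vemurafenib 1 (11.6% to 15.6%), vehicle 1 (11.4% to 17.9%) and vehicle 3 (10.5% to 16.9%), so the spread inside the vemurafenib group exceeded counting error.

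**Figure D2:**
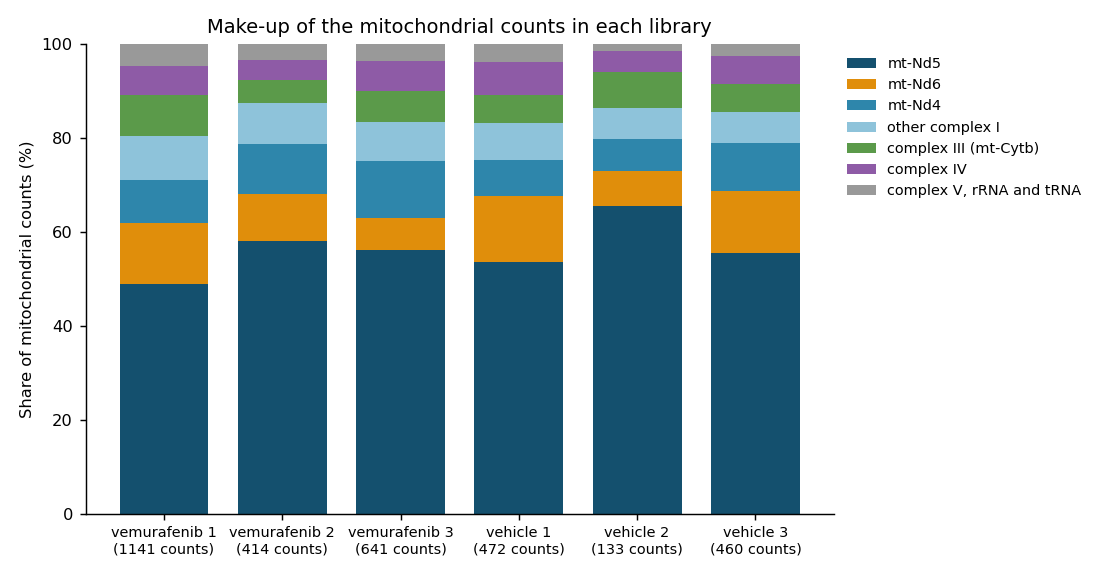
Share of the mitochondrial counts in percent (y axis) for each library (x axis, with its mitochondrial count), stacked by gene or group. The mt-Nd5 block spans 49.0% to 65.4% and the mt-Nd6 block 6.71% to 14.0%, with vemurafenib and vehicle libraries mixed along both ranges.

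The ratio of the 2 facing genes was examined in each library. There were 3.83, 5.71 and 8.37 counts of mt-Nd5 for each count of mt-Nd6 in vemurafenib 1, 2 and 3, and 3.83, 8.70 and 4.18 in vehicle 1, 2 and 3. Each group held a low and a high ratio. On the log2 scale with a pseudocount of 0.5 the ratio averaged 2.49 ± 0.56 with vemurafenib and 2.35 ± 0.62 with vehicle (SD, n = 3 each), a difference of 0.15 (two-sided exact permutation test over the libraries, p = 0.9, where 3 against 3 cannot go below 0.1). The sign turned without vemurafenib 3 (-0.13) and without vehicle 1 (-0.062).

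The comparison of vemurafenib with vehicle gave no member that passed the test. With edgeR's quasi-likelihood test, 0 of the 7 tested members and 0 of all 477 tested genes (0%) reached a Benjamini-Hochberg adjusted p under 0.05 over all tested genes. At an unadjusted p under 0.05 there was 1 member that was higher and 0 that were lower, against 2.52% of all tested genes higher, 2.31% lower and 4.82% in either direction. DESeq2 called 0 members and limma-voom 0, with 0 and 2 members at an unadjusted p under 0.05, and over all tested genes they called 0 and 0, with 14 and 40. All 7 tested members had a log2 fold change above 0, against 51.8% of all tested genes, and their median was 0.47 against 0.018 over all tested genes. The median was 0.77 without vehicle 1 and 0.24 without vehicle 3. With a library left out, the log2 fold change was above 0 for 6 of 8 tested members without vehicle 2, 5 of 7 without vehicle 3, 6 of 7 without vemurafenib 1 and 7 of 8 without vemurafenib 2. They share a genome, precursors and libraries, so the common sign is not 7 separate results.

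In complex I, mt-Nd2 had the smallest p of the members. Its level in CPM (counts scaled to a library of 1000000, with TMM factors) was 661, 704 and 507 in vemurafenib 1, 2 and 3, and 491, 210 and 260 in vehicle 1, 2 and 3. Every vemurafenib library lay above every vehicle library, a separation in this direction that 4.61% of tested genes showed. None of the 7 tested members lay wholly below vehicle, as 4.19% of tested genes did. The log2 fold change was 0.94 ± 0.43 (SE, unadjusted p = 0.0403, adjusted p = 0.89), and these values rest on 15 to 51 counts in the vemurafenib libraries and 3 to 12 in the vehicle libraries. As a share of mitochondrial counts, mt-Nd2 took 4.47%, 3.62% and 2.96% in vemurafenib 1, 2 and 3. In vehicle 1, 2 and 3 it took 2.54%, 2.26% and 2.61%, so these values did not overlap. They rest on the same counts of mt-Nd2, and how many genes separate as shares was not computed. Their exact binomial intervals overlapped, with 1.79% to 4.59% in vemurafenib 3, 1.36% to 4.51% in vehicle 3 and 0.47% to 6.45% in vehicle 2. The subunit mt-Nd4 had 1361, 2066 and 2107 CPM in vemurafenib 1, 2 and 3, and 1473, 630 and 1017 CPM in vehicle 1, 2 and 3. The groups overlapped through vehicle 1, and the log2 fold change was 0.79 ± 0.44 (adjusted p = 0.966). The subunit mt-Nd1 had 635, 939 and 747 CPM in vemurafenib 1, 2 and 3, and 900.3, 350 and 325 CPM in vehicle 1, 2 and 3. Again vehicle 1 stood within the vemurafenib range and the other vehicle libraries below it (0.54 ± 0.47, adjusted p = 0.966). Without vehicle 1 the value was 1.15, and without vehicle 3 it was 0.24.

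The most counted member, mt-Nd5, had 7248, 11268 and 9600 CPM in vemurafenib 1, 2 and 3, and 10353, 6090 and 5517 CPM in vehicle 1, 2 and 3. Its log2 fold change was 0.35 ± 0.46 (adjusted p = 0.995), so even the member with most counts had an error wider than its difference. The value was 0.66 without vehicle 1, 0.23 without vehicle 2, 0.21 without vehicle 3 and 0.18 without vemurafenib 2. The minus-strand gene mt-Nd6 had 1893, 1972 and 1147 CPM in vemurafenib 1, 2 and 3, and 2701, 700 and 1320 CPM in vehicle 1, 2 and 3. Vehicle 1 was the highest library and vehicle 2 the lowest, and the log2 fold change was 0.061 ± 0.46 (adjusted p = 0.995), which turned to -0.26 without vehicle 2, -0.034 without vehicle 3, -0.039 without vemurafenib 1 and -0.066 without vemurafenib 2, and was 0.64 without vehicle 1 and 0.36 without vemurafenib 3. Per kb of gene, mt-Nd5 averaged 5138 ± 1107 CPM with vemurafenib and 4013 ± 1449 CPM with vehicle. On the same per-length scale mt-Nd6 averaged 3219 ± 877 CPM with vemurafenib and 3032 ± 1974 CPM with vehicle (SD, n = 3 each). The small subunits mt-Nd3 (chrM:9459-9806) and mt-Nd4l (chrM:9877-10173), both almost wholly repeated on chromosome 1, had 12 and 11 counts in all and were not tested.

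In complex III, mt-Cytb had 1297, 939 and 1120 CPM in vemurafenib 1, 2 and 3, and 1146, 700 and 606 CPM in vehicle 1, 2 and 3. The groups overlapped, again through vehicle 1, with a log2 fold change of 0.47 ± 0.41 (adjusted p = 0.966) that was 0.77 without vehicle 1 and 0.30 without vehicle 3. In complex IV, mt-Co1, the catalytic subunit, had 778, 704 and 827 CPM in vemurafenib 1, 2 and 3, and 1228, 420 and 476 CPM in vehicle 1, 2 and 3. The vemurafenib libraries were close together and lay inside the vehicle range, and the log2 fold change of 0.12 ± 0.46 (adjusted p = 0.995) turned to -0.099 without vehicle 2 and -0.12 without vehicle 3, and was 0.73 without vehicle 1. The genes mt-Co2 and mt-Co3 (chrM:8607-9390) had 9 and 21 counts, at most 4 and 8 in any library. In complex V, mt-Atp6 (chrM:7927-8607) had 19 counts and mt-Atp8 had 1, too few for a comparison.

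**Figure D3:**
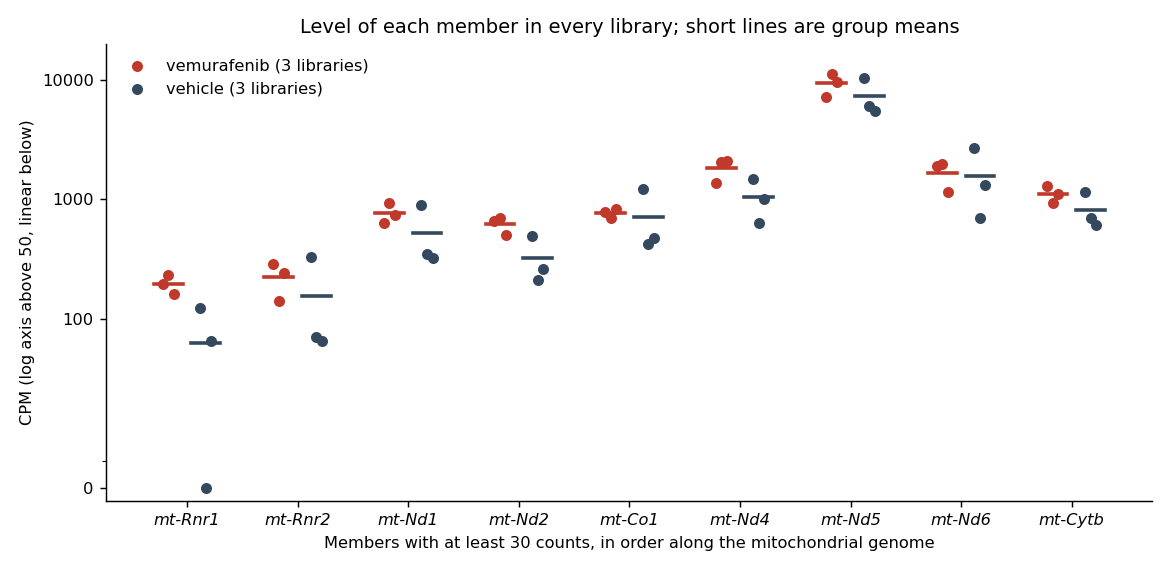
CPM of the 9 members with at least 30 counts (y axis, logarithmic above 50 and linear below) in each vemurafenib library (red, left of each pair) and each vehicle library (dark, right), with group means as short lines. Vehicle 1 lies at or above the vemurafenib mean for mt-Nd1, mt-Nd5, mt-Nd6, mt-Co1, mt-Rnr2 and mt-Cytb. The groups do not overlap for mt-Nd2 and the untested mt-Rnr1, and 4.61% of tested genes lay above vehicle in this way.

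**Figure D4:**
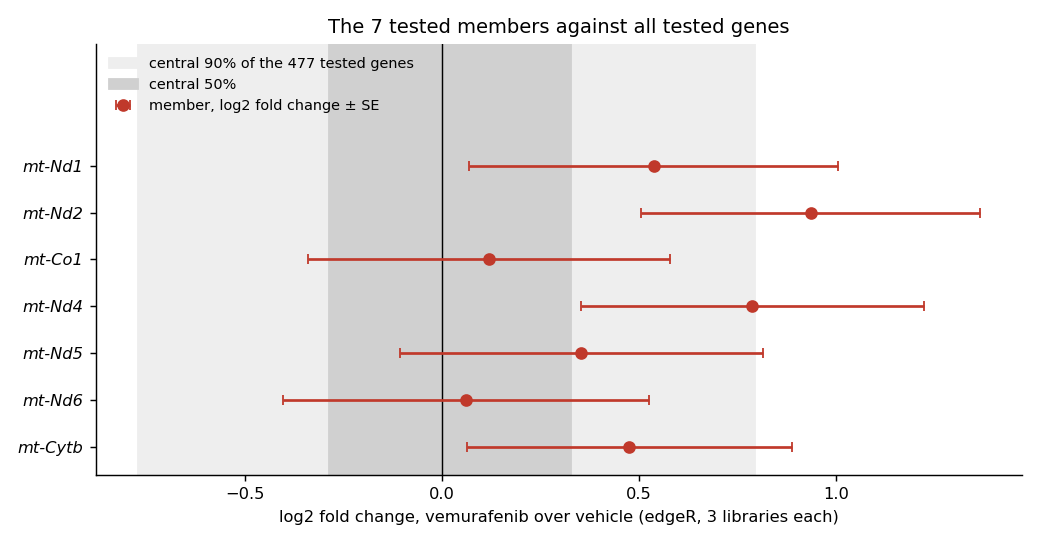
Log2 fold change of vemurafenib over vehicle (x axis, point) with its SE (bar) for the 7 tested members in genome order, over the central 50% (dark band, -0.29 to 0.33) and 90% (light band, -0.77 to 0.79) of the 477 tested genes. All 7 points lie above 0, mt-Nd2 (0.94) lies beyond the light band and mt-Co1 (0.12) and mt-Nd6 (0.061) lie in the dark band.

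The ribosomal RNAs, which are processed from the start of the heavy-strand precursor, were too thinly counted for the test. The small-subunit RNA mt-Rnr1 had 15, 5 and 6 counts in vemurafenib 1, 2 and 3, and 3, 0 and 3 counts in vehicle 1, 2 and 3. On the CPM scale the vemurafenib libraries (194, 235 and 160) all lay above the vehicle libraries (123, 0 and 64.9). Of tested genes 4.61% showed this separation, and no share was computed for genes counted as thinly as mt-Rnr1. The 0 of vehicle 2 allows up to 210.0 CPM by counting error alone, which is above 2 of the 3 vemurafenib values. When genes with at least 10 counts in total were kept, its log2 fold change was 1.41 ± 0.73 (adjusted p = 0.927). The large-subunit RNA mt-Rnr2 had 22, 3 and 9 counts in vemurafenib 1, 2 and 3, and 8, 1 and 3 counts in vehicle 1, 2 and 3, and its CPM overlapped between the groups. In that fit it had 0.66 ± 0.62 (adjusted p = 0.999).

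Of the 22 transfer RNAs, 8 had a count, and no transfer RNA had more than 7 in all. The 8 minus-strand transfer RNAs held 16 counts and the 14 plus-strand ones 9, which is 29.1 and 9.45 counts per kb. On the minus strand the counts were under mt-Te (chrM:14071-14139, glutamate), mt-Tc (chrM:5192-5257, cysteine) and mt-Tp (chrM:15356-15422, proline) with 7, 5 and 4, and the other 5 had none. Of these, mt-Te lies directly beside mt-Nd6. The plus-strand counts were 3 under mt-Ts2, 2 each under mt-Tv and mt-Tl2 and 1 each under mt-Tl1 and mt-Tm. The 5 counts of mt-Tc were 3, 1 and 1 in vemurafenib 1, 2 and 3, and 0 in each vehicle library, all at or under the level that 3 counts give in their library, so no difference can be read from them. The transfer RNAs totalled 130, 235 and 53.3 CPM in vemurafenib 1, 2 and 3, and 123, 70.0 and 86.5 CPM in vehicle 1, 2 and 3.

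Summed over all 37 members, the level was 14794, 19437 and 17093 CPM in vemurafenib 1, 2 and 3, and 19315, 9310 and 9952 CPM in vehicle 1, 2 and 3. The vemurafenib libraries lay close together, and the vehicle group was split between vehicle 1, near the highest value of all, and the other 2 libraries, which lay below every vemurafenib library. The means were 17108 ± 2322 CPM with vemurafenib and 12859 ± 5600 CPM with vehicle (SD, n = 3 each), a mean difference of 0.48 on the log2 scale, given as a description without a test. It was 0.79 without vehicle 1 and 0.28 without vehicle 2. Among the 9 members with at least 30 counts, vehicle 2 was the lowest library for 5 and vehicle 3 for 4. Fewer cells of a type and less RNA per cell cannot be told apart in bulk skin.

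The classes were then summed separately, again without a test. The mean log2 difference was 0.46 for complex I, 0.48 for complex III, 0.41 for complex IV, 0.59 for complex V, 1.18 for the ribosomal RNAs and 0.23 for the transfer RNAs, and in each class the groups overlapped. The pooled SD between libraries on that scale was between 0.37 (complex III) and 0.99 (complex V), and for complexes III and V, the ribosomal and the transfer RNAs it rests on 228, 20, 78 and 25 counts. The complex I value was 0.75 without vehicle 1 and 0.27 without vehicle 2, and the complex III value was 0.31 without vehicle 3. The complex IV value was 0.066 without vehicle 2 and 0.84 without vehicle 1, and the complex V value was 0.074 and 1.25 without those libraries. The ribosomal RNA value was 0.73 without vehicle 2 and 1.80 without vehicle 1, and the transfer RNA value was -0.27 without vemurafenib 2 and 0.79 without vemurafenib 3. By strand, the plus-strand genes differed by 0.51 and the minus-strand genes by 0.24, with pooled SDs of 0.42 and 0.72.

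Markers of the cell types of skin differed between the same libraries. Keratinocyte markers, all 10 with counts, summed to 3008 to 5173 CPM in the vemurafenib libraries and 1428 to 4340 CPM in the vehicle libraries. Dermal fibroblast markers, all 8 with counts, summed to 18399 to 39672 CPM with vemurafenib and 29709 to 64431 CPM with vehicle. Vehicle 3 had the highest fibroblast and the lowest keratinocyte sum together with a low mitochondrial sum, while vehicle 2, with the lowest mitochondrial sum, had keratinocyte markers at 4340 CPM. Skeletal muscle, which is rich in mitochondria, had counts for 9 of 14 markers, at 329 to 507 CPM with vemurafenib and 411 to 770 CPM with vehicle, with Acta1, Myh4, Myh1, Tnnc2 and Pygm at 0. Adipocyte markers had counts for 6 of 10, at 324 to 1120 CPM with vemurafenib and 173 to 560 CPM with vehicle, with Adipoq, Lep, Cfd and Ucp1 at 0. Of the 104 adipocyte counts, 92 were under Lipe alone. Immune markers had counts for 8 of 10, at 765 to 880 CPM with vemurafenib and 498 to 840 CPM with vehicle, with Adgre1 and Cd3e at 0. All of these are counts under gene names of unknown strand, so a marker at 0 does not show that its cell type was absent. The part of these markers in the mitochondrial values was not tested.

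**Figure D5:**
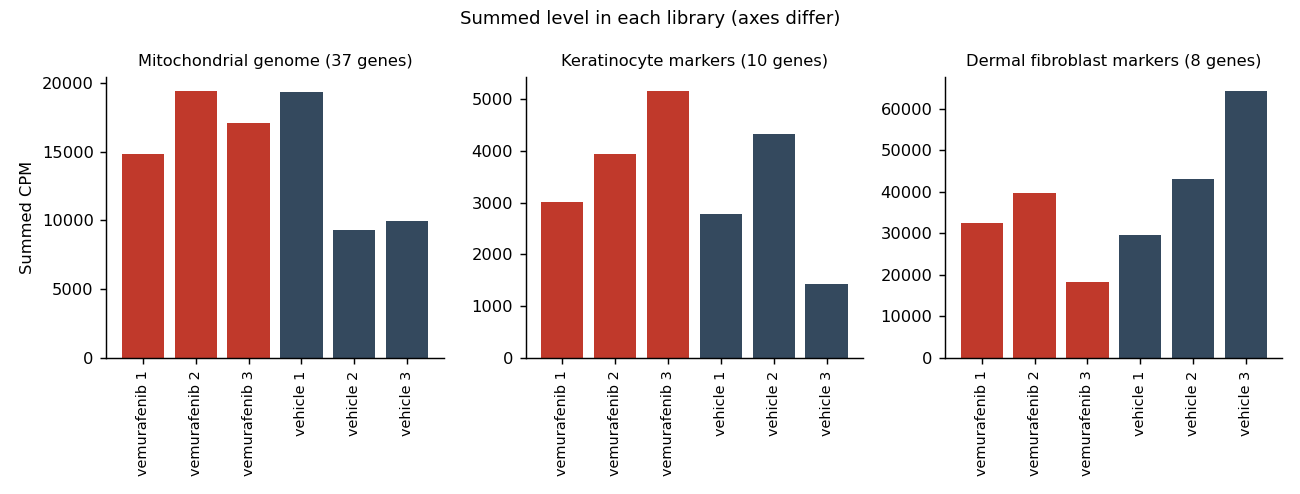
Summed CPM (y axes, which differ) of the 37 mitochondrial genes, the 10 keratinocyte markers and the 8 dermal fibroblast markers in each vemurafenib library (red) and each vehicle library (dark). The mitochondrial sums of vehicle 2 (9310) and vehicle 3 (9952) are the lowest, and vehicle 3 is also the lowest for keratinocyte (1428) and the highest for fibroblast markers (64431).

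Nuclear genes that build, transcribe and service the same organelle were examined beside them. The lists held 201 genes of the table, 130 of them with a count and 987 counts in all, 0.44% of all counts, so the 37 mitochondrial genes held 3.30 counts for each nuclear one. Only 2 of the 201 were tested and 0 passed in either direction. Of 16 genes of mitochondrial transcription and DNA maintenance 1 was tested: Mterf4 (chr1:93299211-93305915), whose product acts in assembly of the mitochondrial ribosome, had 532, 423 and 427 CPM in vemurafenib 1, 2 and 3, and 0, 140 and 325 CPM in vehicle 1, 2 and 3. Its log2 fold change was 1.33 ± 0.57 (adjusted p = 0.874), which was 0.79 without vehicle 1, and its exons overlap 1855 bases of exons of Sned1 on the opposite strand. The list summed to 670 ± 63.8 CPM with vemurafenib and 399 ± 105 CPM with vehicle (SD, n = 3 each) without overlap, and 83 of its 131 counts were under Mterf4. The share of comparable sums that separate in this way was not computed, so the separation is only described. Tfam, which packages mitochondrial DNA and activates its promoters, had no count. Of 17 genes of mitochondrial RNA processing and turnover 1 was tested: Fastk (chr5:24438440-24445287), a mitochondrial RNA-binding protein in one of its forms, had 0.27 ± 0.45 (adjusted p = 0.995), which was -0.034 without vehicle 1 and 1.25 without vehicle 3, with 1141 exon bases opposite Slc4a2. That list summed to 871 ± 82.0 CPM with vemurafenib and 715 ± 320.4 CPM with vehicle. Lrpprc, which stabilises mitochondrial messenger RNAs, had no count.

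The nuclear subunits of the complexes themselves were counted far less than the mitochondrial ones. The 36 nuclear complex I genes held 125 counts, against 2716 for the 7 mitochondrial ones, of which 1754 were under mt-Nd5. As the strand of the counted reads is not known, these counts do not measure the level of either set of messenger RNAs. The nuclear complex I genes had no tested member. They summed to 576 ± 157 CPM with vemurafenib and 461 ± 242 CPM with vehicle (SD, n = 3 each). The 4 genes of complex II, which has no mitochondrial gene, held 6 counts, 3 of them under Sdhb, and summed to 28.9 ± 17.1 CPM with vemurafenib and 28.1 ± 24.3 CPM with vehicle. The 9 nuclear complex III genes held 25 counts, led by Cyc1 with 8, and summed to 140 ± 83.5 CPM with vemurafenib and 91.4 ± 80.4 CPM with vehicle. The 15 nuclear complex IV genes held 39 counts, led by Cox6c with 15, and summed to 181 ± 18.3 CPM with vemurafenib and 152 ± 37.6 CPM with vehicle. The 15 complex V genes, led by Atp5j with 18 of their 88 counts, summed to 454, 423 and 533 CPM in vemurafenib 1, 2 and 3, and 368, 70.0 and 303 CPM in vehicle 1, 2 and 3. Their sums did not overlap, on 1 count in vehicle 2, and no gene of the list was tested. The 83 symbols of mitochondrial ribosomal proteins, pseudogenes among them, led by Mrps25 with 69 counts, summed to 1516 ± 29.7 CPM with vemurafenib and 1242 ± 399 CPM with vehicle. The 6 regulators of mitochondrial biogenesis, led by Pprc1 with 36 counts and with Ppargc1a at 0, summed to 396 ± 74.8 CPM with vemurafenib and 283 ± 39.6 CPM with vehicle. All of these sums except that of complex V and that of transcription and DNA maintenance overlapped between the groups. For neither of those was a share of comparable sums that separate computed.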

How the data were processed

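The authors deposited whole-number read counts per gene symbol. Per the labels' protocols, poly(A) RNA was made into stranded single-end libraries with a KAPA kit, and per the submitters' processing notes HISAT2 and HTSeq were used on mm10. Not given in the sources used here are the versions, annotation, strand setting and handling of reads with several alignments. A further 1 column of the table matches no sample and was left out.

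The whole table was fitted with edgeR 4.0.16 (R 4.3.3): filterByExpr (smallest count 10, smallest total 15), TMM scaling, robust quasi-likelihood test with group as the only term, and Benjamini-Hochberg adjustment over all 477 tested genes with a threshold of 0.05. The SE was derived from the F statistic as |log2 fold change| divided by its square root, with a median of 0.45, and the common biological coefficient of variation was 0.327. The test was tried on simulated data. Sums over members, given in CPM, have no test. Intervals are exact binomial (95%) and, like the floor of 3 counts per library, cover counting error only.

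GENCODE M21, which uses the same build, gave positions, strands and transcript sequences, and in it all 37 symbols were found. No genome sequence was used, so nuclear copies (blastn 2.17.0) and shared words (50 bases, either strand) were sought in annotated transcripts, a change from the plan. The members, lists and tests were chosen with earlier results of these data known. Full values are given for members with at least 30 counts. In each nuclear list the tested member with the smallest p, otherwise the one with most counts, is named, except in nuclear complex I, where it is not reported here. Tfam, Lrpprc, Ppargc1a and Gm28438 were named after their values were seen. Symbols absent from the table (2 of 38 complex I names, for example) were left out. Of 30 names listed for nuclear complex V, only 15 were in the table. Also used were scipy 1.17.1, numpy 2.4.6, pandas 2.3.3, matplotlib 3.10.9, Python 3.11.15, limma 3.58.1 and DESeq2 1.42.0. Alternatives were other scalings, filters and tools, the replicate block and leaving out each library.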

Additional observations from a re-analysis of the deposited data

How the results depend on the processing

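The count of 0 called members was kept under all 16 alternatives: 4 scalings, 3 filters, DESeq2, limma-voom, the replicate block and the loss of each library. Over all genes the count of 0 became 3 with no filter beyond 1 count, 2 with at least 1 CPM in 3 libraries and 3 with at least 10 counts in total. Leaving out 1 library gave 0 to 2 called genes over all and 0 to 0 members. The cause was not tested. The filters also moved the median log2 fold change of all tested genes from 0.018 to 0.42, 0.22 and 0.086. The members mt-Nd1, mt-Nd2, mt-Nd4, mt-Nd5 and mt-Cytb kept a positive log2 fold change under every alternative, as did Mterf4 in the 13 that gave it a value. Leaving out 1 library gave -0.12 to 0.73 for mt-Co1, -0.26 to 0.64 for mt-Nd6 and -0.034 to 1.25 for Fastk. The adjusted p of mt-Nd2 ran from 0.481 to 1.00. The mitochondrial total gave 0.28 to 0.79 when 1 library was left out and 0.61 without mt-Nd5. The minus-strand share differed by -5.74 percentage points without mt-Nd5, whose removal shrinks the denominator, and by -3.53 to 0.13 when 1 library was left out. The mt-Nd5 to mt-Nd6 ratio gave -0.13 to 0.50 when 1 library was left out. With the replicate block 0 genes were called, mt-Nd2 had 0.92, the mitochondrial total 0.48 and the mt-Nd5 to mt-Nd6 ratio 0.15 (exact sign-flip test, two-sided, p = 0.75). Same-numbered libraries did not deviate together (correlations 0.041, -0.080 and -0.33), so the numbers were not read as pairs. Word lengths of 36, 75 and 100 bases, added after seeing the data, left mt-Co2, mt-Atp6, mt-Co3, mt-Nd3 and mt-Nd4l at 97.6% shared or more and moved mt-Co1 to 59.7%, 39.8% and 30.8%. Depth limits every member with fewer than 30 counts and tested members as well: in vehicle 2, mt-Nd2 had 3 counts, mt-Nd1 5 and mt-Co1 6.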
